A study of Mus musculus with 32 samples.

Results

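The genes described here are 10 genes of the NRF2 response, cystine uptake and glutathione metabolism, chosen by name: Slc7a11, Gclc, Gclm, Hmox1, Txnrd1, Nqo1, Srxn1, Gsr, Nfe2l2 and Keap1. The choice was made with earlier results of these data known. Of the 10, 9 had values in each of the 2 expression tables, among 12053 genes in 1 mM glucose and 12791 genes in 10 mM glucose, and Srxn1, which encodes sulfiredoxin, was not analysed here. All cells were mouse embryonic fibroblasts without endogenous Acly, the gene for ATP-citrate lyase, the enzyme that makes acetyl-CoA from citrate. Nuc cells carried mCherry-tagged human ACLY with added nuclear import sequences, Cyto cells the tagged enzyme with a nuclear export sequence, WT cells the tagged enzyme without either, and KO cells mCherry alone in the same vector. Each construct was kept for 24 h in 1 mM or 10 mM glucose, and bulk RNA was sequenced from 4 libraries per construct and medium. In 10 mM glucose the Cyto group has 3 libraries, since its replicate 3, an anomaly according to the submitters, was not analysed here. Neither separate cultures within a group nor more than 1 line per construct are stated in the labels, so p-values measure the spread among these libraries. Where the enzyme was located was not measured in these data.

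NRF2, encoded by Nfe2l2, is a transcription factor that is held at a low level by KEAP1, an adaptor that brings it to the Cul3 ubiquitin ligase. When electrophiles or oxidants modify KEAP1, NRF2 accumulates, pairs with small MAF proteins and binds antioxidant response elements near genes for cystine import, glutathione synthesis, thiol reduction and quinone detoxification. Much of this control acts on the NRF2 protein, which RNA levels do not measure. Slc7a11 also responds to ATF4, the transcription factor of the amino acid and endoplasmic reticulum stress response, and Hmox1 is in addition repressed by BACH1.

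Values are used as deposited and read here as log2 CPM, read counts scaled for library size on a log2 scale. They were compared between constructs within a medium. CPM summed over the measured genes was not the same in all libraries and departed from the nominal CPM total. In both media this sum was lower in every KO library than in the libraries of the other constructs, and in 1 mM glucose it was highest in WT. Results with other scalings are given below. Medium and the labelled batch coincide (1 mM glucose is batch 1 and 10 mM glucose is batch 2), so levels in the 2 media cannot be told apart from batch. Acly averaged 8.97 ± 0.076 in Nuc, 10.50 ± 0.068 in Cyto, 10.57 ± 0.10 in WT and 5.35 ± 0.10 log2 CPM in KO libraries in 1 mM glucose (SD, n = 4 each). In 10 mM glucose it averaged 9.12 ± 0.12 in Nuc (SD, n = 4), 9.74 ± 0.13 in Cyto (SD, n = 3), 10.21 ± 0.064 in WT and 5.87 ± 0.21 log2 CPM in KO libraries (SD, n = 4 each). Thus Acly was lowest in the libraries labelled KO and, among the ACLY constructs, lowest in Nuc in both media. It was 2.90-fold lower in Nuc than in Cyto in 1 mM and 1.54-fold lower in 10 mM glucose. In 10 mM glucose Acly was also 1.39-fold lower in Cyto than in WT (limma adjusted p = 0.00157). In comparisons of Nuc with Cyto or WT, and of Cyto with WT in 10 mM glucose, location and Acly level cannot be told apart. The constructs encode human ACLY, and no source used here states how its reads were assigned to the mouse gene. Of 7 fibroblast markers, 7 were measured, and their sum in 1 mM glucose was 51732 to 56345 CPM in Nuc, 33287 to 36546 CPM in Cyto, 54974 to 63687 CPM in WT and 34279 to 40252 CPM in KO libraries. Their sum in 10 mM glucose was 46254 to 49506 CPM in Nuc, 34958 to 38474 CPM in Cyto, 40696 to 42290 CPM in WT and 24224 to 25019 CPM in KO libraries. Of 5 macrophage markers, 3 were measured, with sums between 8.33 and 35.0 CPM, and 0 of 5 epithelial markers were measured. Of 4 endothelial markers, 1 was measured in 1 mM and 2 in 10 mM glucose, with sums of at most 5.68 CPM. The share of the nominal CPM total from mitochondrially encoded genes in 1 mM glucose was 1.51% ± 0.172 in Nuc, 0.958% ± 0.0786 in Cyto, 1.25% ± 0.0484 in WT and 1.76% ± 0.138 in KO libraries (SD, n = 4 each). In 10 mM glucose it was 4.16% ± 0.0533 in Nuc (SD, n = 4), 4.07% ± 0.329 in Cyto (SD, n = 3), 3.51% ± 0.0260 in WT and 4.74% ± 0.0391 in KO libraries (SD, n = 4 each). The part of these shares and of the fibroblast marker sums in the results below was not tested. A bulk level cannot tell more cells with a transcript from more transcript per cell.

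Promoter sequences are shown for the cystine transporter gene Slc7a11, 2 genes that rose with it in Cyto cells in 1 mM glucose (Gclm and Txnrd1) and a gene that fell there (Nqo1). They come from a set of RefSeq promoters (GRCm38.p6), and the set used here held an entry for 7 of the 10 genes. Each runs from 250 bases before to 50 bases after a transcription start. Positions in the text are counted from the start. Capitals mark matches, on either strand, to the core of the antioxidant response element, TGACNNNGC, or to an ATF4-type element, TGATGNAA. Of 32851 promoters of this length, 12.4% held the first and 3.97% the second. In the windows shown, no match to one motif overlaps a match to the other.
Slc7a11 (chr3:50443564-50443863, minus strand): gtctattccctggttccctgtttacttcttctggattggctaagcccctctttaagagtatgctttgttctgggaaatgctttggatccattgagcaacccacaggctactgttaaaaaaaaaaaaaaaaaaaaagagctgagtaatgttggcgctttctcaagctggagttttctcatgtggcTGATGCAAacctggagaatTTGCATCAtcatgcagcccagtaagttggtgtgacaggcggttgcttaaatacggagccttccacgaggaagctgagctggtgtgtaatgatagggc
Gclm (chr3:122245307-122245606, plus strand): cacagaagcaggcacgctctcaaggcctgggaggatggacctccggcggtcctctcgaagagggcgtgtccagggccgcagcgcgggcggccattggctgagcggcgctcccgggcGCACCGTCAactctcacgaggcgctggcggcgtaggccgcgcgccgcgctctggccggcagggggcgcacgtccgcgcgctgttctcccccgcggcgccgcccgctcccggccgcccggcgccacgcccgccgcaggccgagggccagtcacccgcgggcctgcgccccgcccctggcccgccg
Txnrd1, the second of its 3 starts (chr10:82858956-82859255, plus strand): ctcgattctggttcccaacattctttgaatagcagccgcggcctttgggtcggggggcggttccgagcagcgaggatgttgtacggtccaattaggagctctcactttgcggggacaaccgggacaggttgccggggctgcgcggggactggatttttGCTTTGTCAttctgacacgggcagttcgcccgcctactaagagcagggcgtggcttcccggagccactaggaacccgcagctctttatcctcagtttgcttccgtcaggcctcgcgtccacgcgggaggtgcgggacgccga
Nqo1 (chr8:107403156-107403455, minus strand): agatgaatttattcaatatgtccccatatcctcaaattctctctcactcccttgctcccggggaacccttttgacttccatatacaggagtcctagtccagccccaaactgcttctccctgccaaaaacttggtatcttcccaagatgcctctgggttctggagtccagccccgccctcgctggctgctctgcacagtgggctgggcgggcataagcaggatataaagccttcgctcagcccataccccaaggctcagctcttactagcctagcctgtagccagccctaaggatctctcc
The Slc7a11 window holds 2 ATF4-type matches on opposite strands, at positions -66 to -59 and -47 to -40, and no antioxidant response element core. The Gclm window holds an antioxidant response element core at positions -134 to -126, and that of Txnrd1 holds one at positions -92 to -84, while the windows at the 2 other Txnrd1 starts hold none. In the Nqo1 window neither motif occurs, and bases outside the windows were not searched. Of the 9 windows held for the 10 genes, 4 have an antioxidant response element core. Besides those of Gclm and Txnrd1, these are the windows of Srxn1, at positions 29 to 37, and Nfe2l2, at positions -240 to -232. The Keap1 window has neither motif. A match describes letters in a window and is not a measured binding site.

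In 1 mM glucose, the Cyto cells had the highest levels of the cystine and glutathione synthesis genes, and the Nuc cells came between them and the KO cells. Against KO, 7 of the 9 measured genes rose in Cyto and 2 fell (Nqo1 and Keap1), where 64.7% of all genes were called, 31.7% higher and 33.0% lower. In Nuc, 5 rose, 2 fell (again Nqo1 and Keap1) and 2 were not called, where 60.0% of all genes were called, 30.5% higher and 29.5% lower. In WT, 3 rose, 3 fell and 3 were not called, where 58.2% of all genes were called, 29.7% higher and 28.5% lower. With most genes called in each comparison, a call says little about these genes and the sizes say more: 6 of the 9 were called with at least a 2-fold change in Cyto against KO, as were 16.6% of all genes. The median log2 fold change of the 9 was 1.29 in Cyto, 0.41 in Nuc and -0.016 in WT, beside -0.026, -0.0061 and -0.0021 over all genes. Since the genes were chosen with earlier results of these data known, these values describe them and are no test of the set. The comparisons with KO share the same 4 KO libraries in each medium.

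**Figure D1:**
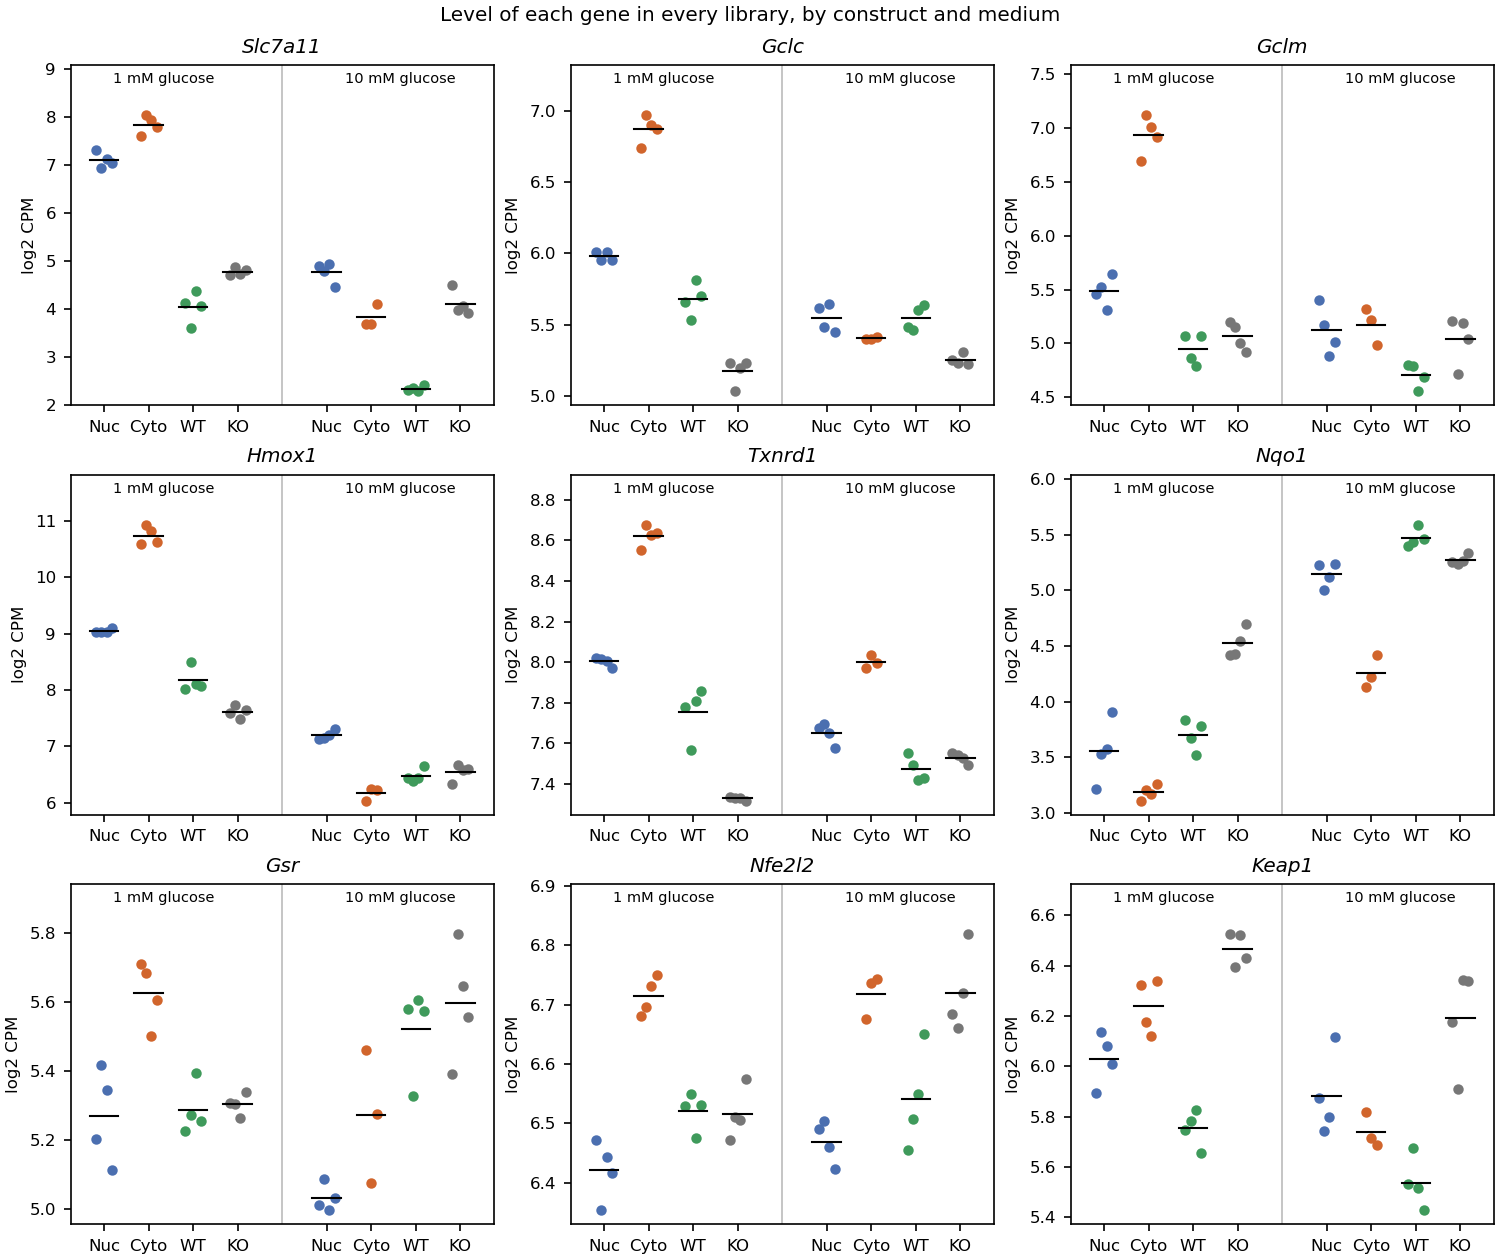
Level of each of the 9 measured genes (log2 CPM) in every library, by construct, with 1 mM and 10 mM glucose side by side; points are libraries and bars are group means. In 1 mM glucose Slc7a11, Gclc, Gclm, Hmox1 and Txnrd1 are highest in the Cyto libraries, and Nqo1 is highest in the KO libraries.

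Slc7a11 encodes the transport subunit of the cystine/glutamate antiporter, which brings in the cystine from which glutathione is made. Its levels in 1 mM glucose were 7.32, 6.93, 7.13 and 7.04 in the Nuc libraries, 7.61, 8.04, 7.94 and 7.81 in the Cyto libraries, 4.11, 3.60, 4.37 and 4.06 in the WT libraries and 4.70, 4.87, 4.73 and 4.81 in the KO libraries (log2 CPM). The 4 constructs did not overlap, in the order Cyto, Nuc, KO and WT. Slc7a11 was 5.03-fold higher in Nuc than in KO (log2 fold change 2.33 ± 0.13, SE, limma adjusted p = 1.91e-10) and 8.42-fold higher in Cyto than in KO (3.07 ± 0.13, limma adjusted p = 5.65e-12). It fell by 0.74 ± 0.13 on the log2 scale in WT against KO (limma adjusted p = 0.000131). WT was therefore the single construct with less Slc7a11 than KO in this medium.

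Gclc and Gclm encode the catalytic and the modifier subunit of glutamate-cysteine ligase, the enzyme of the first step of glutathione synthesis. Gclc stood at 6.01, 5.96, 6.01 and 5.95 in the Nuc libraries, 6.74, 6.97, 6.90 and 6.87 in the Cyto libraries, 5.66, 5.54, 5.82 and 5.70 in the WT libraries and 5.24, 5.04, 5.20 and 5.23 in the KO libraries (log2 CPM). The order was Cyto, Nuc, WT and KO, and no 2 constructs overlapped. Against KO the log2 fold change of Gclc was 0.81 ± 0.070 in Nuc, 1.69 ± 0.070 in Cyto and 0.50 ± 0.070 in WT (SE, limma adjusted p = 3.59e-08, 4.34e-12 and 1.12e-05). Gclm had 5.46, 5.52, 5.31 and 5.65 in the Nuc libraries, 6.69, 7.12, 7.01 and 6.91 in the Cyto libraries, 5.07, 4.86, 4.79 and 5.07 in the WT libraries and 5.20, 5.16, 5.00 and 4.92 in the KO libraries (log2 CPM). For Gclm the Cyto libraries stood apart from all others, and WT and KO overlapped. Its log2 fold change against KO was 0.41 ± 0.10 in Nuc and 1.86 ± 0.10 in Cyto (limma adjusted p = 0.00198 and 1.01e-10), and -0.12 ± 0.10 in WT, which was not called (limma adjusted p = 0.319). In WT, Gclc was called higher than in KO and Gclm was not, and the difference between these genes was not tested.

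Hmox1 encodes haem oxygenase 1, which breaks down haem. Its levels were 9.03, 9.02, 9.02 and 9.11 in the Nuc libraries, 10.58, 10.93, 10.81 and 10.62 in the Cyto libraries, 8.02, 8.50, 8.11 and 8.07 in the WT libraries and 7.58, 7.73, 7.48 and 7.65 in the KO libraries (log2 CPM). The 4 constructs did not overlap, with Cyto highest and KO lowest. Hmox1 was 2.70-fold higher in Nuc than in KO and 8.72-fold higher in Cyto than in KO (log2 fold change 1.43 ± 0.096 and 3.12 ± 0.096, limma adjusted p = 1.57e-09 and 1.84e-13). In WT the log2 fold change against KO was 0.56 ± 0.096 (limma adjusted p = 9.86e-05). Hmox1 in Cyto had a fold change against KO above that of 99.6% of the genes in the table, and Slc7a11 above that of 99.6%.

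Txnrd1 encodes the cytosolic thioredoxin reductase, which keeps thioredoxin reduced, and Gsr encodes glutathione reductase, which regenerates glutathione from its oxidised form. Txnrd1 had 8.02, 8.02, 8.01 and 7.97 in the Nuc libraries, 8.55, 8.68, 8.63 and 8.63 in the Cyto libraries, 7.78, 7.57, 7.81 and 7.86 in the WT libraries and 7.34, 7.33, 7.33 and 7.32 in the KO libraries (log2 CPM). The order was Cyto, Nuc, WT and KO, as for Gclc and Hmox1. Its log2 fold change against KO was 0.67 ± 0.057 in Nuc, 1.29 ± 0.057 in Cyto and 0.42 ± 0.057 in WT (SE, limma adjusted p = 2.6e-08, 7.91e-12 and 7.97e-06). Gsr ranged over 5.11 to 5.42 in Nuc, 5.50 to 5.71 in Cyto, 5.23 to 5.40 in WT and 5.26 to 5.34 log2 CPM in KO libraries. Gsr rose in Cyto against KO (log2 fold change 0.32 ± 0.073, limma adjusted p = 0.00093), with -0.034 ± 0.073 in Nuc and -0.016 ± 0.073 in WT (limma adjusted p = 0.71 and 0.865).

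Nqo1, which encodes the quinone reductase NQO1 and is among the most used markers of NRF2 activity, moved the other way. It had 3.21, 3.53, 3.58 and 3.91 in the Nuc libraries, 3.11, 3.21, 3.17 and 3.26 in the Cyto libraries, 3.84, 3.67, 3.52 and 3.78 in the WT libraries and 4.42, 4.43, 4.54 and 4.70 in the KO libraries (log2 CPM). The KO libraries were above those of the other 3 constructs. Nqo1 fell in all 3 ACLY constructs against KO, with log2 fold changes of -0.96 ± 0.12 in Nuc, -1.34 ± 0.12 in Cyto and -0.82 ± 0.12 in WT (SE, limma adjusted p = 3.48e-06, 5.68e-08 and 2.56e-05). In Cyto, Nqo1 was thus 2.52-fold lower than in KO while Slc7a11, Gclc, Gclm, Hmox1 and Txnrd1 were each more than 2-fold higher.

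Nfe2l2 and Keap1 encode the regulators among the 9 genes. Nfe2l2 had 6.47, 6.35, 6.44 and 6.42 in the Nuc libraries, 6.68, 6.70, 6.73 and 6.75 in the Cyto libraries, 6.53, 6.55, 6.48 and 6.53 in the WT libraries and 6.47, 6.51, 6.50 and 6.57 in the KO libraries (log2 CPM). The Cyto libraries were highest, and the others lay close together. Its log2 fold change against KO was -0.095 ± 0.047 in Nuc, 0.20 ± 0.047 in Cyto and 0.0053 ± 0.047 in WT (limma adjusted p = 0.0944, 0.00143 and 0.932). These calls turned on scaling: with quantile normalization the Cyto value was 0.078 and not called (limma adjusted p = 0.179), and the Nuc value was -0.18 and called (limma adjusted p = 0.00506). Keap1 had 5.89, 6.14, 6.08 and 6.01 in the Nuc libraries, 6.32, 6.18, 6.12 and 6.34 in the Cyto libraries, 5.75, 5.78, 5.83 and 5.66 in the WT libraries and 6.52, 6.39, 6.52 and 6.43 in the KO libraries (log2 CPM). The KO libraries were highest and the WT libraries lowest. Keap1 fell in all 3 ACLY constructs, with log2 fold changes of -0.44 ± 0.069 in Nuc, -0.23 ± 0.069 in Cyto and -0.71 ± 0.069 in WT (limma adjusted p = 3.54e-05, 0.00793 and 1.87e-07). A part of Keap1 in the levels of the target genes was not tested.

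Comparing the 2 localised forms directly in 1 mM glucose, 8 of the 9 genes fell in Nuc against Cyto and Nqo1 rose, where 41.0% of all genes were called, 20.4% higher and 20.5% lower. Acly itself had a log2 fold change of -1.53 ± 0.065 in this comparison (SE, limma adjusted p = 2.46e-11), so location and Acly level cannot be told apart. The log2 fold changes were -1.69 ± 0.096 for Hmox1 and -1.45 ± 0.10 for Gclm (SE, limma adjusted p = 7.08e-10 and 8.28e-09). They were -0.89 ± 0.070 for Gclc, -0.74 ± 0.13 for Slc7a11 and -0.62 ± 0.057 for Txnrd1 (limma adjusted p = 3.35e-08, 0.000219 and 2.12e-07). Gsr was lower by a log2 fold change of -0.36 ± 0.073 and Nfe2l2 of -0.29 ± 0.047 (limma adjusted p = 0.000837 and 9.62e-05). Keap1 (-0.21 ± 0.069) and Nqo1 (0.37 ± 0.12) were called at limma adjusted p = 0.021 and 0.0223. The Nuc and Cyto libraries overlapped for Keap1 and Nqo1 and not for the other 7 genes, where 45.2% of all genes did not overlap. Both calls were lost without single libraries: Keap1 without Cyto 1, Cyto 4 or Nuc 1 (limma adjusted p = 0.0615 to 0.0756) or with quantile normalization (0.0595), and Nqo1 without Cyto 1 (0.0542) or Nuc 4 (0.0893).

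Against WT in 1 mM glucose, 6 of the 9 genes rose in Nuc and none fell, where 39.1% of all genes were called, 19.7% higher and 19.4% lower, and 8 rose in Cyto and Nqo1 fell, where 53.2% of all genes were called, 25.7% higher and 27.5% lower. Slc7a11 was higher than in WT by a log2 fold change of 3.07 ± 0.13 in Nuc and 3.82 ± 0.13 in Cyto (limma adjusted p = 1.83e-11 and 1.04e-12). Gclm was higher by 0.53 ± 0.10 in Nuc and 1.98 ± 0.10 in Cyto (limma adjusted p = 0.00051 and 9.99e-11). Nqo1 in Nuc differed from WT by -0.15 ± 0.12, which was not called (limma adjusted p = 0.358).

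**Figure D2:**
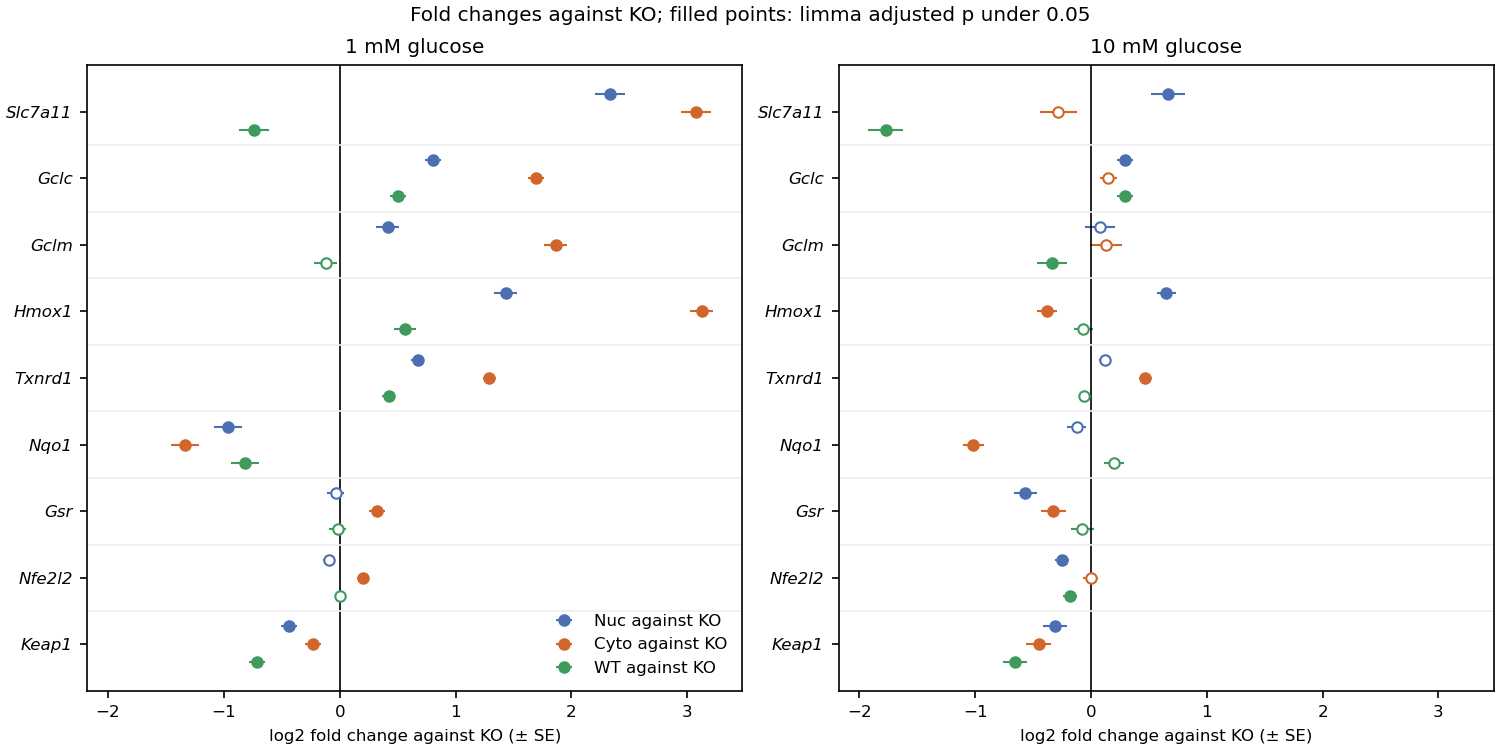
Log2 fold change against KO (x axis, ± SE from limma) of the 9 measured genes in Nuc, Cyto and WT cells, in 1 mM glucose and in 10 mM glucose; filled points have a limma adjusted p under 0.05. In 1 mM glucose the Cyto points of Slc7a11 and Hmox1 lie at 3.07 and 3.12, while in 10 mM glucose they lie at -0.28 and -0.38.

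In 10 mM glucose Cyto had the highest mean for Gclm and Txnrd1 among the 9 genes. The range of the 4 construct means was narrower than in 1 mM glucose for 8 of the 9 genes, with Gsr the exception (0.36 in 1 mM and 0.57 log2 units in 10 mM glucose), a description across 2 separately normalized tables. Against KO, 3 of the 9 rose and 3 fell in Nuc, where 45.3% of all genes were called, 22.7% higher and 22.7% lower. In Cyto, 1 rose and 4 fell, where 38.5% of all genes were called, 19.6% higher and 18.9% lower, and in WT, 1 rose and 4 fell, where 40.8% of all genes were called, 20.6% higher and 20.2% lower. The count of 5 called in WT was 3 without KO 4, WT 1 or WT 2. The median log2 fold change of the 9 was 0.079 in Nuc, -0.28 in Cyto and -0.075 in WT, beside -0.00026, -0.0033 and -0.0014 over all genes.

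Slc7a11 in 10 mM glucose had 4.90, 4.80, 4.93 and 4.46 in the Nuc libraries, 3.68, 3.69 and 4.10 in the Cyto libraries, 2.31, 2.35, 2.28 and 2.41 in the WT libraries and 4.49, 3.98, 4.05 and 3.90 in the KO libraries (log2 CPM). The WT libraries lay below those of the other constructs, and the Nuc libraries overlapped with KO. Slc7a11 rose in Nuc (log2 fold change 0.66 ± 0.15, limma adjusted p = 0.00164) and fell in WT (-1.77 ± 0.15, limma adjusted p = 1.29e-07), both against KO. In Cyto it differed from KO by -0.28 ± 0.16, which was not called (limma adjusted p = 0.185). Without the libraries numbered 4 the Cyto difference was -0.49 and was called (limma adjusted p = 0.0296). WT had less Slc7a11 than KO in both media.

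Gclc in 10 mM glucose lay at 5.45 to 5.65 in Nuc, 5.40 to 5.42 in Cyto, 5.46 to 5.64 in WT and 5.23 to 5.31 log2 CPM in KO libraries. It rose in Nuc and in WT against KO (log2 fold change 0.29 ± 0.071 and 0.29 ± 0.071, limma adjusted p = 0.00296 and 0.00345), with 0.15 ± 0.076 in Cyto (limma adjusted p = 0.135). Gclm lay at 4.89 to 5.41 in Nuc, 4.99 to 5.32 in Cyto, 4.56 to 4.80 in WT and 4.72 to 5.21 log2 CPM in KO libraries. The KO range of Gclm overlapped those of the other 3 constructs. Gclm was called lower in WT than in KO at limma adjusted p = 0.0469 (log2 fold change -0.33 ± 0.13), a call lost without any 1 of KO 1, KO 3, KO 4 or WT 1 to WT 4 (limma adjusted p = 0.057 to 0.127), without a trend (0.0599), with equal medians (0.0565), with quantile normalization (0.0503) or without all libraries numbered 4 (0.106). In Nuc and in Cyto, Gclm differed from KO by 0.079 ± 0.13 and 0.13 ± 0.14 (limma adjusted p = 0.65 and 0.481).

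Hmox1 in 10 mM glucose had 7.13, 7.15, 7.21 and 7.30 in the Nuc libraries, 6.03, 6.24 and 6.22 in the Cyto libraries, 6.45, 6.39, 6.44 and 6.65 in the WT libraries and 6.34, 6.66, 6.59 and 6.60 in the KO libraries (log2 CPM). The Nuc libraries were highest and the Cyto libraries lowest, with WT and KO overlapping between them. Hmox1 rose in Nuc (log2 fold change 0.65 ± 0.082, limma adjusted p = 6.98e-06) and fell in Cyto (-0.38 ± 0.088, limma adjusted p = 0.00264) against KO. The order of Nuc and Cyto for Hmox1 in 10 mM glucose was therefore the reverse of that in 1 mM glucose. Beside this, the sum of the 3 measured macrophage markers in 10 mM glucose was 28.9 to 35.0 CPM in Nuc, 13.8 to 15.5 in Cyto, 18.2 to 19.7 in WT and 12.4 to 22.3 CPM in KO libraries. In 1 mM glucose, where Hmox1 was highest in Cyto, that sum was 20.6 to 25.2 in Nuc, 10.2 to 13.9 in Cyto, 8.33 to 13.6 in WT and 19.1 to 23.4 CPM in KO libraries. Ptprc and Adgre1, the 2 other listed macrophage markers, were not analysed here, and the part of these markers in the Hmox1 levels was not tested.

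Txnrd1 in 10 mM glucose had 7.67, 7.69, 7.65 and 7.58 in the Nuc libraries, 7.97, 8.03 and 7.99 in the Cyto libraries, 7.55, 7.49, 7.42 and 7.43 in the WT libraries and 7.55, 7.54, 7.53 and 7.49 in the KO libraries (log2 CPM). The Cyto libraries were highest, and those of WT and KO overlapped. Txnrd1 rose in Cyto against KO (log2 fold change 0.47 ± 0.053, limma adjusted p = 3.62e-06), and Nuc differed by 0.12 ± 0.049, which was not called (limma adjusted p = 0.0602). The Nuc value was called without Nuc 4 (limma adjusted p = 0.0255), with equal medians (0.0388), with a replicate block (0.0349) and without all libraries numbered 4 (0.0443). Nqo1 had 5.23, 5.01, 5.12 and 5.23 in the Nuc libraries, 4.13, 4.22 and 4.42 in the Cyto libraries, 5.40, 5.43, 5.59 and 5.46 in the WT libraries and 5.26, 5.23, 5.26 and 5.33 in the KO libraries (log2 CPM). The Cyto libraries lay below all others, and Nqo1 fell in Cyto against KO (log2 fold change -1.02 ± 0.091, limma adjusted p = 2.68e-07). In Nuc and WT, Nqo1 differed from KO by -0.12 ± 0.084 and 0.20 ± 0.084, and neither was called (limma adjusted p = 0.251 and 0.071). Cyto thus had the highest Txnrd1 and the lowest Nqo1 of the 4 constructs in both media.

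Gsr in 10 mM glucose lay at 5.00 to 5.09 in Nuc, 5.08 to 5.46 in Cyto, 5.33 to 5.61 in WT and 5.39 to 5.80 log2 CPM in KO libraries. Gsr fell in Nuc and in Cyto against KO (log2 fold change -0.57 ± 0.10 and -0.33 ± 0.11, limma adjusted p = 0.00022 and 0.0253). The Cyto call was lost without KO 2, KO 3, Cyto 2 or Cyto 4 (limma adjusted p = 0.056 to 0.15) and when the pair of groups was fitted alone (0.0676) or all libraries numbered 4 were left out (0.0743). Nfe2l2 lay at 6.42 to 6.50 in Nuc, 6.68 to 6.74 in Cyto, 6.46 to 6.65 in WT and 6.66 to 6.82 log2 CPM in KO libraries, with Nuc and WT overlapping below Cyto and KO. It fell in Nuc (log2 fold change -0.25 ± 0.059, limma adjusted p = 0.0023) and in WT (-0.18 ± 0.059, limma adjusted p = 0.022), the WT call being lost without KO 4, WT 1 or WT 2 (0.0582 to 0.0761). Keap1 lay at 5.74 to 6.12 in Nuc, 5.69 to 5.82 in Cyto, 5.43 to 5.67 in WT and 5.91 to 6.34 log2 CPM in KO libraries. It fell in all 3 ACLY constructs, with log2 fold changes of -0.31 ± 0.10 in Nuc, -0.45 ± 0.11 in Cyto and -0.65 ± 0.10 in WT (limma adjusted p = 0.0208, 0.00384 and 8.64e-05). The Nuc call for Keap1 was lost without KO 3, KO 4, Nuc 2 or Nuc 3 (limma adjusted p = 0.0584 to 0.0698) and with the pair fitted alone (0.0598). Keap1 was thus called lower than in KO in all 3 constructs in both media.

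Nuc against Cyto in 10 mM glucose called 3 of the 9 genes higher and 2 lower, where 31.0% of all genes were called, 15.3% higher and 15.7% lower. Slc7a11, Hmox1 and Nqo1 rose, with log2 fold changes of 0.95 ± 0.16, 1.03 ± 0.088 and 0.89 ± 0.091 (limma adjusted p = 0.000284, 2.39e-07 and 1.58e-06). Txnrd1 and Nfe2l2 fell, by 0.35 and 0.25 on the log2 scale (limma adjusted p = 9.56e-05 and 0.00675). Gsr differed by -0.24 ± 0.11 and was called only without Cyto 2 (limma adjusted p = 0.106 with it and 0.0441 without it). Against WT, Nuc had 5 genes higher and 2 lower, where 28.8% of all genes were called, 15.0% higher and 13.8% lower, and Cyto had 4 higher and 2 lower, where 31.5% of all genes were called, 15.9% higher and 15.6% lower. Several of these were lost without single libraries: in Nuc against WT, Gclm without WT 3, Nuc 1 or Nuc 2 (limma adjusted p = 0.0554 to 0.0836) and Keap1 without WT 4 or Nuc 4 (0.0557 and 0.0503) or all libraries numbered 4 (0.109). In Cyto against WT, Gclm was lost without Cyto 1 or Cyto 2 (0.0797 and 0.0566), Hmox1 without Cyto 1 (0.0731) and Nfe2l2 without WT 1, WT 2, WT 3, Cyto 1, Cyto 2 or Cyto 4 (0.0594 to 0.121), with equal medians (0.0584) or with quantile normalization (0.136), while Gsr was called only without WT 2 or Cyto 1 (0.0459 and 0.0397).

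Whether the effect of a construct differed between media was tested by subtracting its log2 fold change in 10 mM glucose from the one in 1 mM glucose, over the 11931 genes in both tables. For Cyto against KO, 7 of the 9 genes had a higher fold change in 1 mM glucose and none a lower one, where 44.7% of all genes were called, 21.5% higher and 23.2% lower. The difference was 3.51 ± 0.13 for Hmox1 and 3.36 ± 0.21 for Slc7a11 (SE, limma adjusted p = 1.57e-17 and 2.62e-13). It was 1.73 ± 0.17 for Gclm, 1.54 ± 0.096 for Gclc and 0.82 ± 0.073 for Txnrd1 (limma adjusted p = 3.19e-09, 3.75e-13 and 3.6e-10). For Gsr it was 0.65 ± 0.13 and for Nfe2l2 0.20 ± 0.070 (limma adjusted p = 0.000124 and 0.0208), the call of Nfe2l2 being lost with quantile normalization (0.158) and without KO 4 (0.0518) or Cyto 1 (0.0592) of 10 mM glucose. The 2 media were 2 batches, and a part of these differences that comes from a batch acting unequally on the constructs cannot be told apart. Acly itself differed between media by 1.29 ± 0.12 in Cyto against KO (SE, limma adjusted p = 7.74e-10). For Nuc and WT against KO it differed by 0.38 ± 0.11 and 0.88 ± 0.11 (limma adjusted p = 0.0103 and 1.05e-06). Medium and Acly level therefore cannot be told apart in these comparisons with KO.

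For Nuc against KO, 5 of the 9 had a higher fold change in 1 mM glucose and Nqo1 a lower one, where 36.5% of all genes were called, 17.8% higher and 18.7% lower. The difference was 1.67 ± 0.20 for Slc7a11, 0.78 ± 0.13 for Hmox1 and -0.84 ± 0.15 for Nqo1 (limma adjusted p = 1.25e-07, 1.87e-05 and 4.54e-05). Gclm was not called at 0.34 ± 0.17 (limma adjusted p = 0.113), and was called without KO 2 or Nuc 1 of 10 mM glucose (0.0314 and 0.0392). Nfe2l2, not called at limma adjusted p = 0.07, was called without Nuc 2 of 1 mM glucose (0.0486). For WT against KO, 4 were higher and Nqo1 lower, where 26.2% of all genes were called, 13.5% higher and 12.7% lower, with 1.03 ± 0.20 for Slc7a11 and -1.02 ± 0.15 for Nqo1 (limma adjusted p = 0.000251 and 5.97e-06). The WT call of Nfe2l2 (0.19 ± 0.067, limma adjusted p = 0.0421) was lost with quantile normalization (0.192), with the pair of groups alone (0.122), with a replicate block (0.0503) and without any 1 of 11 libraries (0.0565 to 0.102), and Gclc was called without WT 2 of 1 mM glucose (0.0324).

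For Nuc against Cyto, 6 of the 9 had a lower fold change in 1 mM glucose and none a higher one, where 19.0% of all genes were called, 9.47% higher and 9.48% lower. Acly itself differed by -0.91 ± 0.12 (SE, limma adjusted p = 1.41e-06), so location and Acly level cannot be told apart here either. Hmox1 differed by -2.72 ± 0.13, Slc7a11 by -1.69 ± 0.21 and Gclm by -1.40 ± 0.17 (limma adjusted p = 5.38e-15, 4.83e-07 and 6.2e-07). For Hmox1 and Slc7a11 the sign of the Nuc against Cyto fold change was opposite in the 2 media, with -1.69 in 1 mM and 1.03 in 10 mM glucose for Hmox1, and -0.74 in 1 mM and 0.95 in 10 mM glucose for Slc7a11. The call of Nqo1 was lost without Cyto 1 of 10 mM glucose (limma adjusted p = 0.0554) and with the pair of groups alone (0.0502). Keap1, not called at limma adjusted p = 0.0513, was called without Cyto 1, Nuc 2 or Nuc 3 of 10 mM glucose or Cyto 3 or Nuc 2 of 1 mM glucose (0.0328 to 0.0499), and in Cyto against KO it was called without KO 2 of 10 mM glucose (0.0283).

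**Figure D3:**
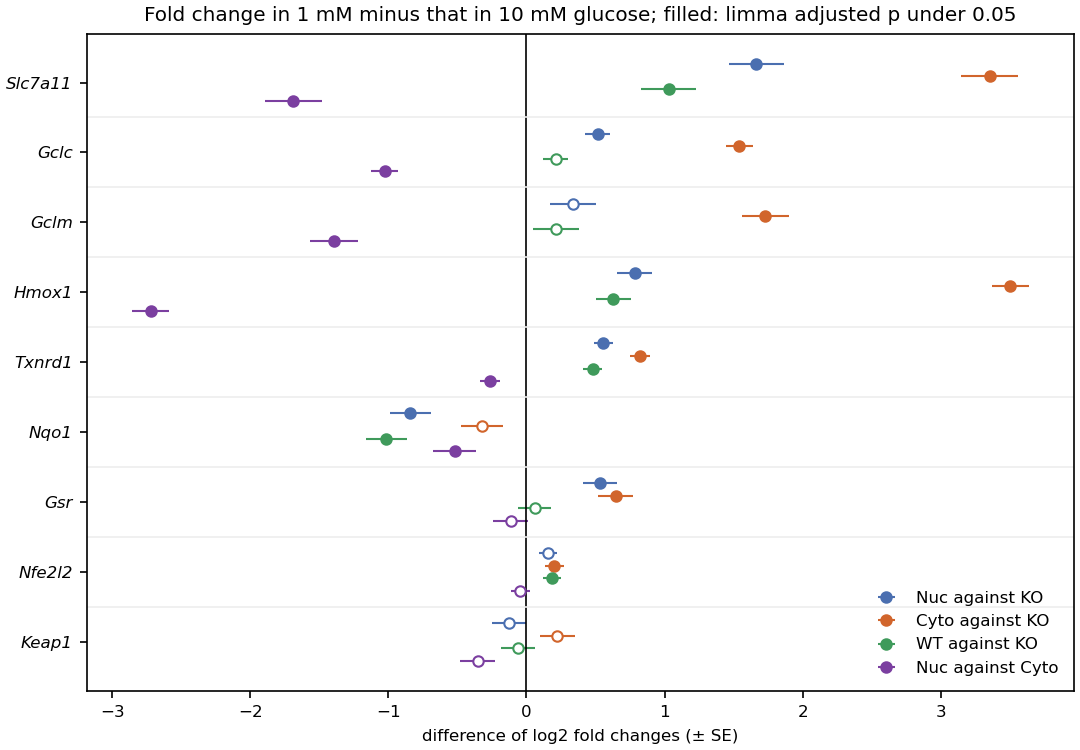
Difference between media of the log2 fold change, 1 mM minus 10 mM (x axis, ± SE from limma), for the 9 measured genes, in Nuc, Cyto and WT against KO and in Nuc against Cyto; filled points have a limma adjusted p under 0.05. The Cyto against KO points of Hmox1 and Slc7a11 lie farthest to the right, at 3.51 and 3.36.

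Other genes that NRF2 is known to regulate moved in both directions. Of 20 measured of 22 listed, 6 were called higher and 11 lower in Nuc against KO in 1 mM glucose (median log2 fold change -0.30). In Cyto, 10 were called higher and 5 lower (median 0.31), and in WT 7 higher and 8 lower (median -0.13). Over all genes in the same comparisons, 60.0% were called in Nuc, 64.7% in Cyto and 58.2% in WT. In Cyto the called genes with the smallest p were Gstp1, a glutathione S-transferase (2.18 ± 0.14), and Abcc1 and Abcc4, exporters of conjugates (1.20 ± 0.080 and 1.37 ± 0.097). In Nuc they were Gstm1, another glutathione S-transferase, which fell (-1.94 ± 0.078), Cbr1, a carbonyl reductase, which fell (-2.20 ± 0.12), and Me1, the cytosolic malic enzyme that makes NADPH, which rose (0.73 ± 0.058). Nuc against Cyto called 3 of these 20 higher and 15 lower (median -0.48; 41.0% of all genes were called), among the lower ones Gstm1, Osgin1 and Pgd, an enzyme of the pentose phosphate pathway (-1.04 ± 0.078, -1.32 ± 0.10 and -0.74 ± 0.061). In 10 mM glucose the 20 had 5 higher and 7 lower in Nuc, 6 and 4 in Cyto, and 5 and 3 in WT, all against KO. In that medium 45.3% of all genes were called in Nuc, 38.5% in Cyto and 40.8% in WT. Nuc against Cyto in 10 mM glucose called 2 of the 20 higher and 9 lower (median -0.19, with 31.0% of all genes called). The difference of that comparison between media was called higher for 4, lower for 5 and not called for 11, where 19.0% of all genes were called.

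ATF4 target genes, listed because Slc7a11 is one of ATF4's targets as well, were mostly higher than in KO in 1 mM glucose. Of 16, 14 rose and 2 fell in Nuc (median log2 fold change 0.62), 13 rose and 2 fell in Cyto (median 0.89), and 15 rose and 1 fell in WT (median 0.52). In the same comparisons 30.5% of all genes were called higher in Nuc, 31.7% in Cyto and 29.7% in WT. Ddit3, which encodes the stress factor CHOP, rose by 2.72 ± 0.18 in Nuc and 2.09 ± 0.18 in WT. Nupr1, a small stress-induced regulator, rose by 2.23 ± 0.11 in Nuc and 2.49 ± 0.11 in Cyto. Whether ATF4 had a part in the Slc7a11 levels was not tested. In 10 mM glucose 8 of the 16 rose and 2 fell in Nuc, 9 and 1 in Cyto, and 10 and 2 in WT, where 22.7% of all genes were called higher in Nuc, 19.6% in Cyto and 20.6% in WT. The medians over all genes in 1 mM glucose are those given for the 9 genes.

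Of the 21 measured of 24 listed genes for glutathione synthesis, breakdown and use, 9 rose and 5 fell in Nuc, 6 rose and 8 fell in Cyto, and 8 rose and 7 fell in WT, against KO in 1 mM glucose, where 60.0% of all genes were called in Nuc, 64.7% in Cyto and 58.2% in WT. Chac1, which degrades glutathione and is also induced by ATF4, rose by 1.51 ± 0.13 in Nuc and 1.99 ± 0.13 in Cyto on the log2 scale. Cth, which makes cysteine from cystathionine, rose by 1.15 ± 0.075 in Cyto. Glrx, glutaredoxin, changed by -1.99 ± 0.080 in Nuc, -1.83 ± 0.080 in Cyto and -1.36 ± 0.080 in WT, all called lower.

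Of 12 regulators and partners of NRF2, 5 rose and 4 fell in Nuc, 6 rose and 3 fell in Cyto, and 4 rose and 3 fell in WT in 1 mM glucose, beside 60.0%, 64.7% and 58.2% of all genes called in that order. Syvn1, a ubiquitin ligase of the endoplasmic reticulum that can target NRF2, rose by 2.34 ± 0.060 in Nuc, 1.87 ± 0.060 in Cyto and 1.60 ± 0.060 in WT. The small MAF gene Mafk, a partner of NRF2, rose by 1.18 ± 0.075 in Nuc, 1.62 ± 0.075 in Cyto and 0.85 ± 0.075 in WT, and Maff by 0.78 ± 0.13, 1.95 ± 0.13 and 0.67 ± 0.13 in the same order. Among 13 genes for thioredoxin and peroxide removal, 4 rose and 6 fell in Nuc, 5 rose and 6 fell in Cyto, and 6 rose and 3 fell in WT, beside the same shares of all genes. Txnip, which binds and inhibits thioredoxin and is induced by glucose, changed by -3.71 ± 0.25 in Nuc, -2.65 ± 0.25 in Cyto and -2.04 ± 0.25 in WT, all called lower than in KO. Its level was low in this medium, with means of 3.97 in KO and 1.92 log2 CPM in WT. Txn2, mitochondrial thioredoxin, rose by 0.70 ± 0.095 in Nuc, 1.11 ± 0.095 in Cyto and 0.86 ± 0.095 in WT, and Cat, catalase, was lower by log2 fold changes of -0.61 ± 0.058, -0.53 ± 0.058 and -0.38 ± 0.058 in that order. In 10 mM glucose, by contrast, Txnip was called higher in WT than in KO (0.30 ± 0.062, limma adjusted p = 0.00112). Each gene named from these lists had a limma adjusted p under 0.05 in the comparison given.

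**Figure D4:**
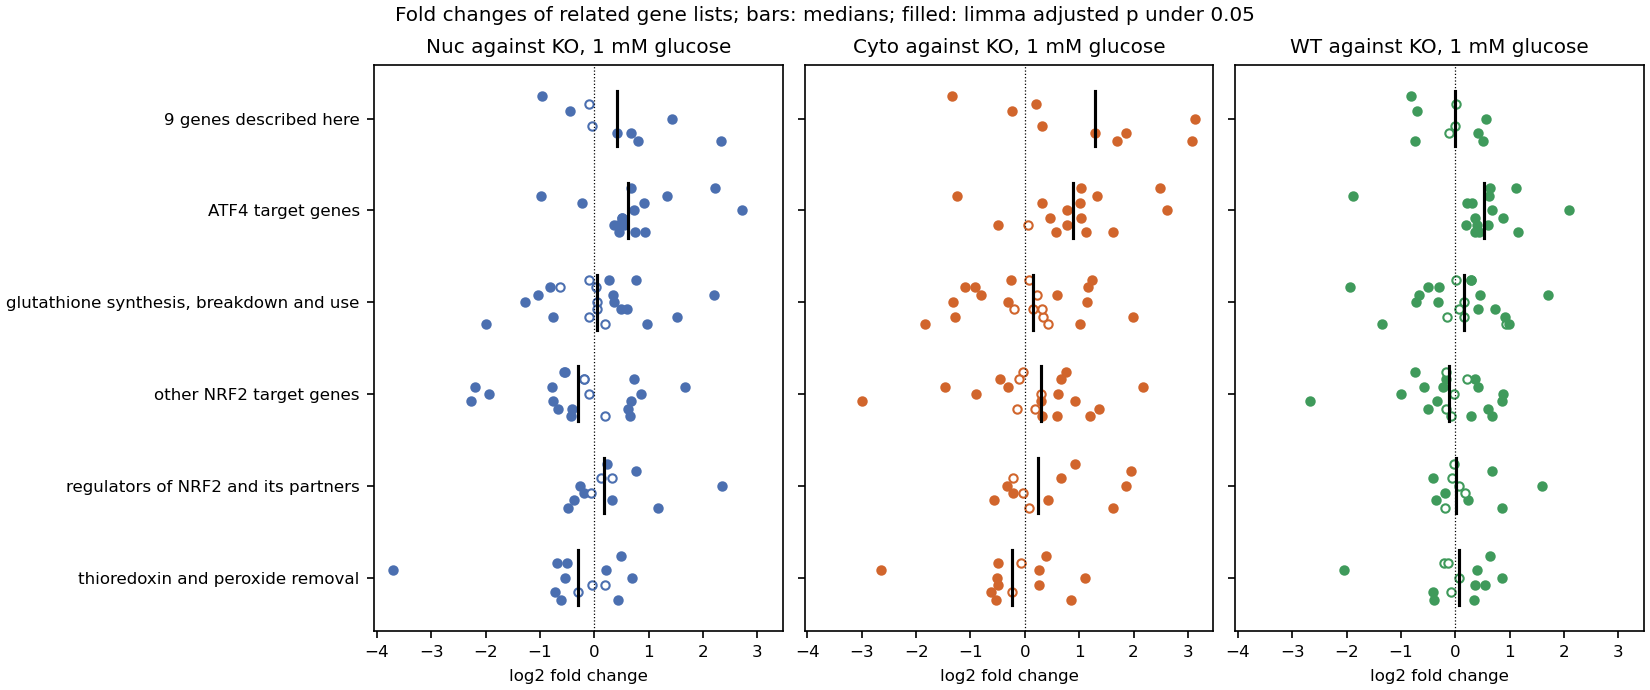
Log2 fold change against KO in 1 mM glucose (x axis) of the 9 genes and of the measured genes of 5 related lists, in Nuc, Cyto and WT cells; each point is a gene, filled where the limma adjusted p is under 0.05, and bars are medians. The ATF4 target genes lie mostly above 0 in the 3 constructs, and the other lists lie on both sides of 0.

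Over the 16 libraries in 1 mM glucose, Pearson's r was 0.99 between Gclc and Txnrd1 and 0.98 between Gclc and Hmox1, and over the 15 libraries in 10 mM glucose it was -0.076 and 0.38. Nqo1 and Txnrd1 ran in opposite directions in both media (r = -0.89 and -0.97). Libraries of a construct lie together, so these values mostly describe 4 construct means. The widest ranges of construct means were those of Slc7a11, Hmox1 and Gclm in 1 mM glucose and of Slc7a11, Nqo1 and Hmox1 in 10 mM glucose. By the lower of the 2 correlations the genes most like Slc7a11 were Prr16 (r = 0.94 and 0.92 in 1 mM and 10 mM glucose), Sulf1 (0.97 and 0.91) and Tnfrsf23 (0.93 and 0.90). Those most like Hmox1 were Gstp1 (0.93 and 0.88), Ltbp2 (0.87 and 0.86) and Fibin (0.85 and 0.95), and those most like Gclm were Epha2 (0.88 and 0.84), Ttc38 (0.85 and 0.80) and Pacsin2 (0.86 and 0.79). For Nqo1 they were Fbxo25 (0.93 and 0.95), Smarca2 (0.95 and 0.92) and Ctnna2 (0.91 and 0.96).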

How the data were processed

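Bulk RNA sequencing of 31 of the 32 labelled libraries was used (16 in 1 mM and 15 in 10 mM glucose). For each medium the authors deposited a table of log2 values per gene, read here as log2 CPM from the values. Per the submitters' processing notes, kallisto, edgeR, limma and GRCm39 were used; their versions and filters are not given in the sources used here. Normalization was separate for each table. Depth is unknown, so no counting interval is given. The entry without a symbol (1 per table) was left out. The 4 constructs of a medium were tested in 1 fit of group means on the deposited log2 values with limma 3.58.1 in R 4.3.3, with a trend in the prior variance and Benjamini-Hochberg adjustment over the table (threshold 0.05). Media differences used the shared genes and all libraries. The fit was tested on simulated data. The rule for named genes took the 10 genes, given where a result turns on them and otherwise by counts, up to 3 called genes of smallest p from 5 other lists, and the 3 genes most alike. Members and lists were chosen with earlier results of these data known. Alternatives were an offset, a filter, other scalings, no trend, the groups alone, a replicate block and each library left out.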

Additional observations from a re-analysis of the deposited data

Results flagged for a closer look

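Of 63 groups of 4 libraries, 3 had 1 library far from the others by Dixon's test, which chance gives in about 1 in 20 groups. Gsr in WT cells in 10 mM glucose was 5.33 log2 CPM in replicate 2 (nearest 5.58). Hmox1 in Nuc cells in 1 mM glucose was 9.11 in replicate 4 (nearest 9.03), and Txnrd1 in KO cells in 1 mM glucose was 7.32 in replicate 4 (nearest 7.33).

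The log2 fold change differed between media, as 1 mM minus 10 mM glucose with a limma adjusted p under 0.05, for 24 results. For Nuc against KO the differences were 1.67 for Slc7a11, 0.51 for Gclc, 0.78 for Hmox1, 0.56 for Txnrd1, -0.84 for Nqo1 and 0.53 for Gsr. For Cyto against KO the differences were 3.36 for Slc7a11, 1.54 for Gclc, 1.73 for Gclm, 3.51 for Hmox1, 0.82 for Txnrd1, 0.65 for Gsr and 0.20 for Nfe2l2. For WT against KO the differences were 1.03 for Slc7a11, 0.63 for Hmox1, 0.48 for Txnrd1, -1.02 for Nqo1 and 0.19 for Nfe2l2. For Nuc against Cyto the differences were -1.69 for Slc7a11, -1.03 for Gclc, -1.40 for Gclm, -2.72 for Hmox1, -0.27 for Txnrd1 and -0.52 for Nqo1.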

How the results depend on the processing

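Adding 1 on the linear scale and keeping genes with a mean log2 of at least 0 left all 144 values of the 9 genes in the same direction and on the same side of the threshold. So did 143 without a trend, 140 with equal medians, 140 with the groups alone, 136 with quantile normalization and 83 of 90 without the libraries numbered 4 in 10 mM glucose, a setting chosen after seeing the data. The number of genes called in WT against KO in 10 mM glucose, 5, ranged over 3 to 5 with 1 library left out and was lowest without KO 4, WT 1 or WT 2. Uncalled log2 values that changed sign with 1 library left out were Nfe2l2 Cyto against KO in 10 mM glucose (-0.022 to 0.031), Gclm Nuc against KO in 10 mM glucose (-0.028 to 0.16), Gclm Nuc against Cyto in 10 mM glucose (-0.15 to 0.024), Gclc Nuc against WT in 10 mM glucose (-0.033 to 0.032), Gsr WT against KO in 1 mM glucose (-0.052 to 0.0046), Nfe2l2 WT against KO in 1 mM glucose (-0.0091 to 0.025), Gsr Nuc against KO in 1 mM glucose (-0.083 to 0.018), Gsr Nuc against WT in 1 mM glucose (-0.067 to 0.034), Gsr WT against KO in 1 mM minus 10 mM glucose (-0.0070 to 0.13) and Keap1 WT against KO in 1 mM minus 10 mM glucose (-0.11 to 0.034). Without the libraries numbered 4, Nfe2l2 in Cyto against KO in 10 mM glucose was 0.018 and Gclc in Nuc against WT 0.063, which was 0.00091 with equal medians, and Nfe2l2 in WT against KO in 1 mM glucose was -0.060 with quantile normalization. The cause was not tested. Same-numbered libraries correlated in their deviations at -0.18 to 0.14 in 1 mM and -0.026 to 0.36 in 10 mM glucose. In 1 mM glucose 2 of 24 same-numbered pairs were over 0.1, against 8 of 72 other pairs; in 10 mM glucose 5 of 21 were, 4 of them between libraries numbered 4, against 1 of 63. The median in 10 mM glucose was 0.052 for same-numbered and -0.012 for other pairs. The numbers are not said to mark a shared culture or day and were not taken to pair the samples. Still, same-numbered libraries in 10 mM glucose, above all those numbered 4, deviated partly together. A replicate block left 142 of 144 values on the same side, with Nfe2l2 in the WT against KO media difference (0.19, limma adjusted p = 0.0503) and Txnrd1 in Nuc against KO in 10 mM glucose (0.12, limma adjusted p = 0.0349) crossing the threshold. Depth per library is unknown, so how far it limits the low genes cannot be given.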
